A study of Mus musculus with 24 samples.

Results

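The western diet was compared with normal chow across both injections of this study, that is, 12 serum exosome samples of mice on the western diet against 12 samples of mice on chow, out of 24 samples in all. A sample was taken as western diet where its label began with WD and as chow where it began with ND. The mice of all 4 groups, with 6 samples each, were males of the C57BL/6N strain aged 40 weeks. WD+CCl4 mice received the western diet and weekly intraperitoneal carbon tetrachloride, a liver toxin, and are termed HCC (liver cancer) in the labels. ND+CCl4 mice received chow and carbon tetrachloride and are termed cirrhosis. WD+oil mice received the western diet and corn oil, the vehicle, and are termed NASH (fatty liver with inflammation). ND+oil mice received chow and corn oil and are termed normal. The western diet joined a high-fat feed to drinking water with 23.1 g/L fructose and 18.9 g/L glucose, whereas chow was given with tap water. The diet term therefore compares feed and drink together, and every sample carries 1 of the 2 injections. Of 566 mouse miRNA probes on the NanoString nCounter panel, which counts barcoded probes without amplification, 158 were tested. Each of these exceeded the mean plus 2 SD of 8 negative control probes in at least 6 of the 24 libraries, and 294 of the 566 probes never did. The labels do not state that samples came from separate animals, so the p-values refer to sample-to-sample spread, which may be technical.

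MicroRNAs are short RNAs that guide Argonaute proteins to messenger RNAs, mostly by pairing of the seed, bases 2 to 8 of the mature strand, and lower the output of the paired messages. Family members that share a seed can bind overlapping sets of messages. Cells release miRNAs into blood inside exosomes and other vesicles and bound to proteins, and the liver, blood cells and vessel wall are major sources. miR-122 makes up much of the miRNA of hepatocytes, let-7 miRNAs are abundant in most differentiated cells, miR-451 and miR-144 come from red cells, and miR-223 and the miR-142 strands come from blood cells. A change in serum vesicles cannot tell more vesicles of a source from more of a miRNA in each vesicle.

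The mature sequences below belong to the miRNAs that carry the diet difference described in the following paragraphs. They are from RefSeq on GRCm38.p6, written 5′ to 3′ with the seed in capitals. Of the 31 probes past the threshold, 27 matched an entry. The panel uses older names without a strand, and for those the strand that the older name denoted is shown. miR-122, miR-151-5p, miR-669a and miR-2138 are given by name. The first 4 are let-7 family members, which were all lower on the western diet and share the seed GAGGUAG.
let-7b: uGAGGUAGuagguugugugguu
let-7g: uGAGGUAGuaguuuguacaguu
let-7i: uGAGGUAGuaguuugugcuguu
miR-98: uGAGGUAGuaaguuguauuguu
The next 4 were measured by 2 probes, each shared by a pair of miRNAs, were lower as well and share the seed AAAGUGC. miR-17 and miR-20a lie 477 bases apart on chromosome 14, and miR-20b and miR-106a lie 360 bases apart on chromosome X.
miR-17: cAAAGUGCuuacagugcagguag
miR-20a: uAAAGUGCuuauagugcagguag
miR-20b: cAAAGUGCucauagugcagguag
miR-106a: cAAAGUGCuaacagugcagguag
The next 4 were the other falls with the smallest p for which an entry matched, each with a seed of its own.
miR-125a-5p: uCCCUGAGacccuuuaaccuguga
miR-340-5p: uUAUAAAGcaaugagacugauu
miR-26b: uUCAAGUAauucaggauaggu
miR-29b: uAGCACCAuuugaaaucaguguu
The last 9 were the rises with an entry, and no seed is shared among them.
miR-1224: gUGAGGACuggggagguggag
miR-2137: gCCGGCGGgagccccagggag
miR-432: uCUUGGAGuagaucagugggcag
miR-483: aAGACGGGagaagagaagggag
miR-1897-3p: uCAACUCGuucuguccggugag
miR-342-3p: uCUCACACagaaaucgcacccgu
miR-146a: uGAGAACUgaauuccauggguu
miR-132: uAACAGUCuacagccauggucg
miR-574-3p: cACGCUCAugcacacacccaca

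Over the 29 miRNA names with an entry there were 23 distinct seeds, and the 2 shared seeds were those of the let-7 and miR-17 groups. The 9 rises had a median GC content of 54.5% (40.9% to 85.7%), and the 20 names among the falls one of 40.9% (27.3% to 50%). GC content was not compared with that of all miRNAs tested, of which 117 of the 158 had an entry under their name or a strand of it. miR-1224 lies at chr16:20604452-20604472 on the plus strand, inside Vwa5b2, and is a mirtron, a miRNA cut from a short intron by splicing. miR-483 lies at chr7:142654968-142654989 on the minus strand inside Igf2, which encodes an insulin-like growth factor. miR-432 lies at chr12:109595006-109595028 on the plus strand, inside the span of the retrotransposon-derived gene Rtl1 in the imprinted Dlk1-Dio3 region.

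Total recovered miRNA counts were 42478 to 1496818 per library (median 207119.5), and 69 to 213 of the 566 probes lay above the negative control limit. Replicate 1 of WD+CCl4 and replicate 1 of ND+CCl4 stood apart, at 22.3 and 23.7 on the first principal component (44.2% of the variance), where no other library exceeded 6.84. Each diet holds 1 of them. The haemolysis index, log2 miR-451 minus log2 miR-23a, was 3.04 ± 0.85 on the western diet and 3.65 ± 1.06 on chow (SD, n = 12 each), a difference of -0.61 with p = 0.145 by an exact two-sided permutation of diet within each injection (adjusted p = 0.434 over 3 measures). The log2 total count differed by 0.09 (exact permutation p = 0.876, adjusted p = 0.876) and the number of miRNAs above the limit by 13.7 (exact permutation p = 0.367, adjusted p = 0.551).

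On the western diet 31 of 158 miRNAs changed (19.6%), 11 higher (6.96%) and 20 lower (12.7%), by limma's additive model of diet and injection on log2(scaled count + 1) with Benjamini-Hochberg adjusted p under 0.05 over the 158. The rises ran from log2 0.79 (miR-132) to 2.89 (miR-122), and the falls from -0.53 (miR-350) to -1.25 (miR-181a). The median of all 158 differences was -0.05, with 74 above 0 (46.8%). Of the 31 miRNAs, 13 lay on their side of the chow mean of the same injection in 12 of 12 western diet samples. Another 13 did so in 11 of 12. Selection on these same samples favours such counts, and let-7c, miR-370 and miR-15b, which did not pass, also reached 11 of 12. No miRNA separated all 12 western diet samples from all 12 chow samples (0 of 158, 0%). At an unadjusted p under 0.05 there were 45 (28.5%).

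**Figure D1:**
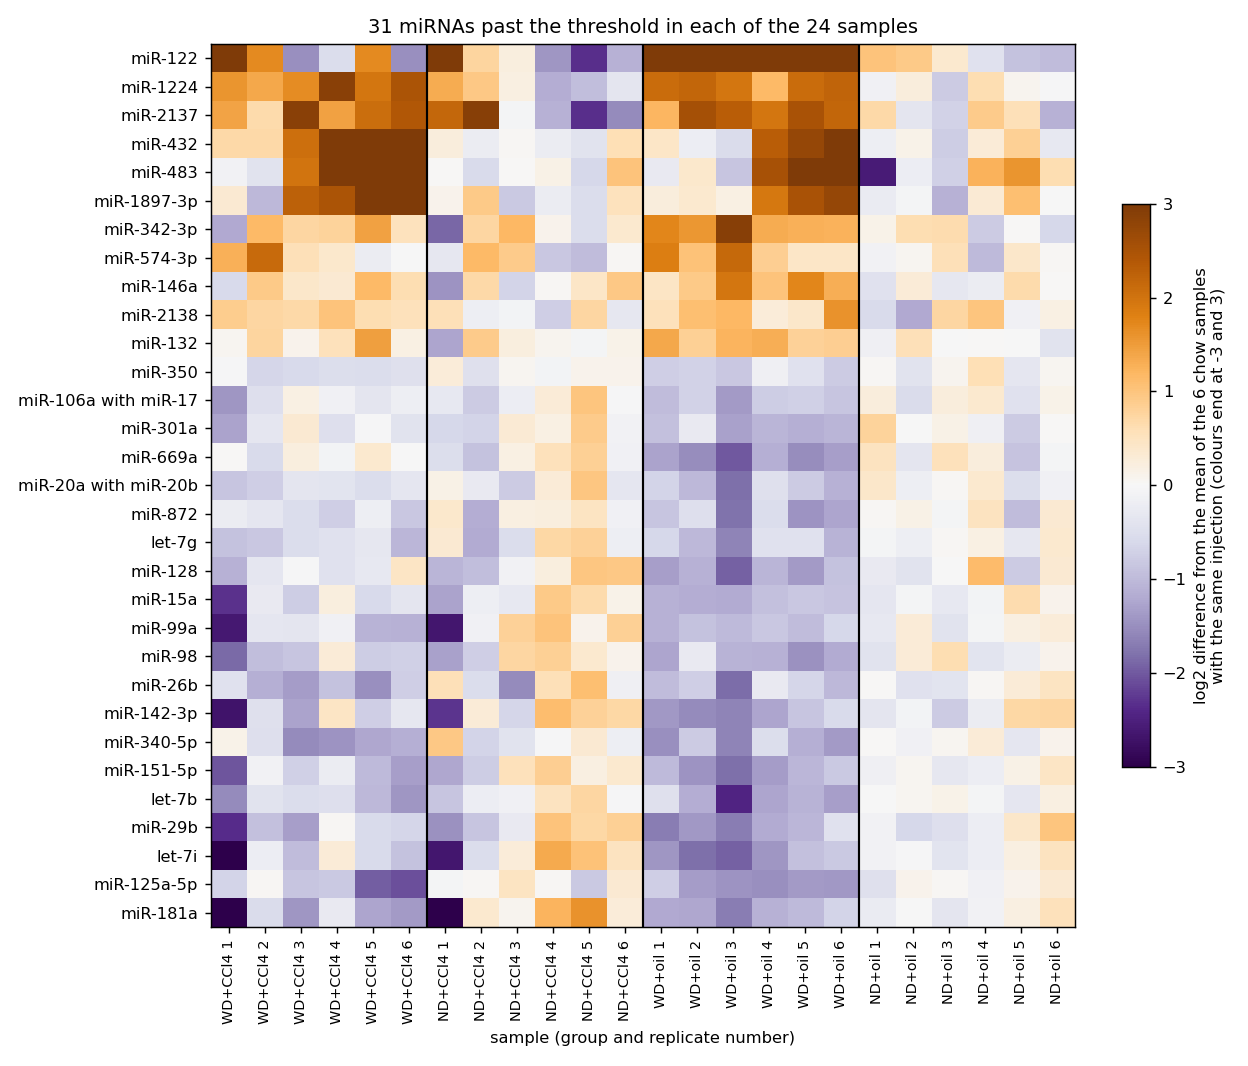
The 31 miRNAs past the threshold (rows, largest rise on top) in each of the 24 samples (columns, by group and replicate number), coloured by the log2 difference from the mean of the 6 chow samples with the same injection. miR-432, miR-483 and miR-1897-3p are high in western diet replicates 4 to 6 of both injections and in WD+CCl4 replicate 3.

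Same-numbered samples of the 2 diets deviated together (correlations of 0.28 to 0.84, the highest that of the 2 libraries that stood apart). The pairs were taken from these correlations, not from a stated pairing. Deviations were taken from the mean of all 6 samples of a group. They therefore also hold any difference between replicates 1 to 3 and 4 to 6 that the diets share, and its part was not tested. WD+oil replicates 2 and 3 and WD+CCl4 replicate 5 correlated best with a chow sample of another number. With each same-numbered pair as a block 56 miRNAs passed (35.4%), 28 in each direction, among them all 31. All 31 also passed without the 2 libraries that stood apart, when 51 passed (32.3%). Centring each library on its median left 11 rises and 13 falls, so that 45.8% of the calls were rises in place of 35.5%. Scaling by the spike-in probes left 0 calls by limma, with 12 at an unadjusted p under 0.05, and raised the median SE to 0.58, against 0.32.

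miR-1224 had the smallest p of the 158 miRNAs. With carbon tetrachloride it lay at 1678 to 4770.1 in WD+CCl4 (median 2296), against 289 to 1631 in ND+CCl4 (median 623), in scaled counts as deposited. With oil it lay at 1183 to 2447 in WD+oil (median 2254), against 304 to 817 in ND+oil (median 538). The groups did not overlap with either injection, and 11 of the 12 western diet samples lay above all 12 chow samples. The mean log2 level was 11.16 ± 0.50 on the western diet and 9.19 ± 0.77 on chow (SD, n = 12 each), a 3.92-fold difference (log2 difference 1.97, SE 0.27, adjusted p = 1.3e-05, limma), seen in 12 of 12 samples. It was the 1 miRNA of 158 past the threshold with carbon tetrachloride alone (0.633%; log2 1.99, adjusted p = 0.00394), and the difference with oil was 1.95.

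miR-2137, a GC-rich miRNA inside Zfp185 on chromosome X, rose 3.90-fold (log2 difference 1.96, SE 0.46, adjusted p = 0.00601, limma). With carbon tetrachloride it lay at 1255 to 5839.5 in WD+CCl4 (median 2747), against 157 to 5877 in ND+CCl4 (median 564). In the oil groups it was at 1326 to 3339 in WD+oil (median 2720.4), against 264 to 1072 in ND+oil (median 647). The oil groups did not overlap, whereas ND+CCl4 replicates 1 and 2 lay within or above the WD+CCl4 range. The log2 difference was 2.86 in replicates 4 to 6, without overlap of the diets, and 1.07 in replicates 1 to 3.

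miR-122, the main miRNA of hepatocytes, had the largest difference, 7.41-fold (log2 difference 2.89, SE 0.75, adjusted p = 0.0126, limma). With carbon tetrachloride it lay at 1455 to 44112 in WD+CCl4 (median 8072), against 809 to 60749.7 in ND+CCl4 (median 3358). With oil it lay at 2949 to 10211 in WD+oil (median 6359), against 78.0 to 313 in ND+oil (median 155). The oil groups were far apart and the carbon tetrachloride groups overlapped over most of their range, so 6 of 6 WD+oil samples but 3 of 6 WD+CCl4 samples lay above the chow mean of their injection. The log2 difference was 0.55 (SE 0.85) with carbon tetrachloride and 5.23 (SE 0.85) with oil. The diet by injection term was -4.67 (SE 1.21), with an unadjusted p of 0.00071 and an adjusted p of 0.112 by limma. In the 4 alternatives run for this term its adjusted p was 0.00044 to 0.0522, and it passed in 3 of them. Both libraries that stood apart held the highest miR-122 of their groups, and without them the diet difference was 3.19. It was the 1 call of the 31 that edgeR on recovered counts did not make (log2 2.68, adjusted p = 0.0717).

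Another 5 rises lay between log2 0.79 and 1.12. miR-342-3p, abundant in lymphocytes, had 270 to 1694 scaled counts in WD+CCl4, 168 to 1408 in ND+CCl4, 1719 to 5351 in WD+oil and 416 to 1137 in ND+oil (log2 difference 1.12, SE 0.34, adjusted p = 0.0263, limma). miR-146a, which NF-kappaB induces and which dampens TRAF6 and IRAK1 signalling, rose by log2 0.85, SE 0.27 (adjusted p = 0.0332, limma). miR-132, which CREB induces, rose by 0.79, SE 0.22, and its oil groups did not overlap. miR-574-3p rose by 0.91, SE 0.30. miR-2138 rose by 0.80 (SE 0.25) but exceeded the negative control limit in only 5 western diet and 2 chow libraries.

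The other 3 rises, miR-432, miR-483 and miR-1897-3p, had larger differences in replicates 4 to 6, as did miR-2137. In those replicates miR-432 lay at 102 to 289.5 in the 6 western diet samples (median 179.9), against 11.5 to 36.3 in the 6 chow samples (median 20.0), with no overlap. In replicates 1 to 3 it lay at 13.2 to 67.2 in the 6 western diet samples (median 25.6), against 11.3 to 21.8 in the 6 chow samples (median 16.7), and all but 1 library of each diet were under the negative control limit. Over all replicates miR-432 was above the limit in 7 western diet libraries and 1 chow library, and its 3.69-fold difference (log2 difference 1.88, SE 0.46, adjusted p = 0.00935, limma) rests mostly on chow values under that limit.
miR-483 lay in replicates 4 to 6 at 328 to 891 in the 6 western diet samples (median 623), against 30.6 to 171 in the 6 chow samples (median 92.7). In replicates 1 to 3 it lay at 30.9 to 192 in the 6 western diet samples (median 45.5), against 8.70 to 49.1 in the 6 chow samples (median 40.8). Over all replicates miR-483 was higher (log2 difference 1.79, SE 0.60, adjusted p = 0.0363, limma), as shown by 8 of 12 samples. It was above the negative control limit in 8 western diet and 6 chow libraries. With background subtraction miR-483 did not pass (adjusted p = 0.175, limma).
miR-1897-3p lay in replicates 4 to 6 at 239 to 559.6 in the 6 western diet samples (median 389), against 38.8 to 133 in the 6 chow samples (median 70.0). In replicates 1 to 3 it lay at 27.5 to 275 in the 6 western diet samples (median 72.9), against 28.1 to 109 in the 6 chow samples (median 56.1). Over all replicates miR-1897-3p was higher (log2 difference 1.53, SE 0.43, adjusted p = 0.0176, limma), as shown by 11 of 12 samples. It was above the negative control limit in 8 western diet and 6 chow libraries. With background subtraction miR-1897-3p did not pass (adjusted p = 0.213, limma).
The negative control limit was 21.4 to 71.8 scaled counts in replicates 4 to 6 and 16.8 to 277 in replicates 1 to 3. In replicates 4 to 6 the diets did not overlap in any of these 3 miRNAs, and in replicates 1 to 3 they overlapped in each. A term for the difference of the diet effect between replicates 4 to 6 and 1 to 3 was tested over the 158 miRNAs, and 1 passed (0.633%), miR-432 at 2.48 (SE 0.52, limma adjusted p = 0.0116). miR-483 was at 1.99 and miR-1897-3p at 1.88, both with adjusted p = 0.202, and miR-2137 at 1.79 (SE 0.83, adjusted p = 0.915, limma). The labels give no batch for these replicate numbers, and what separates the sets was not tested.

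**Figure D2:**
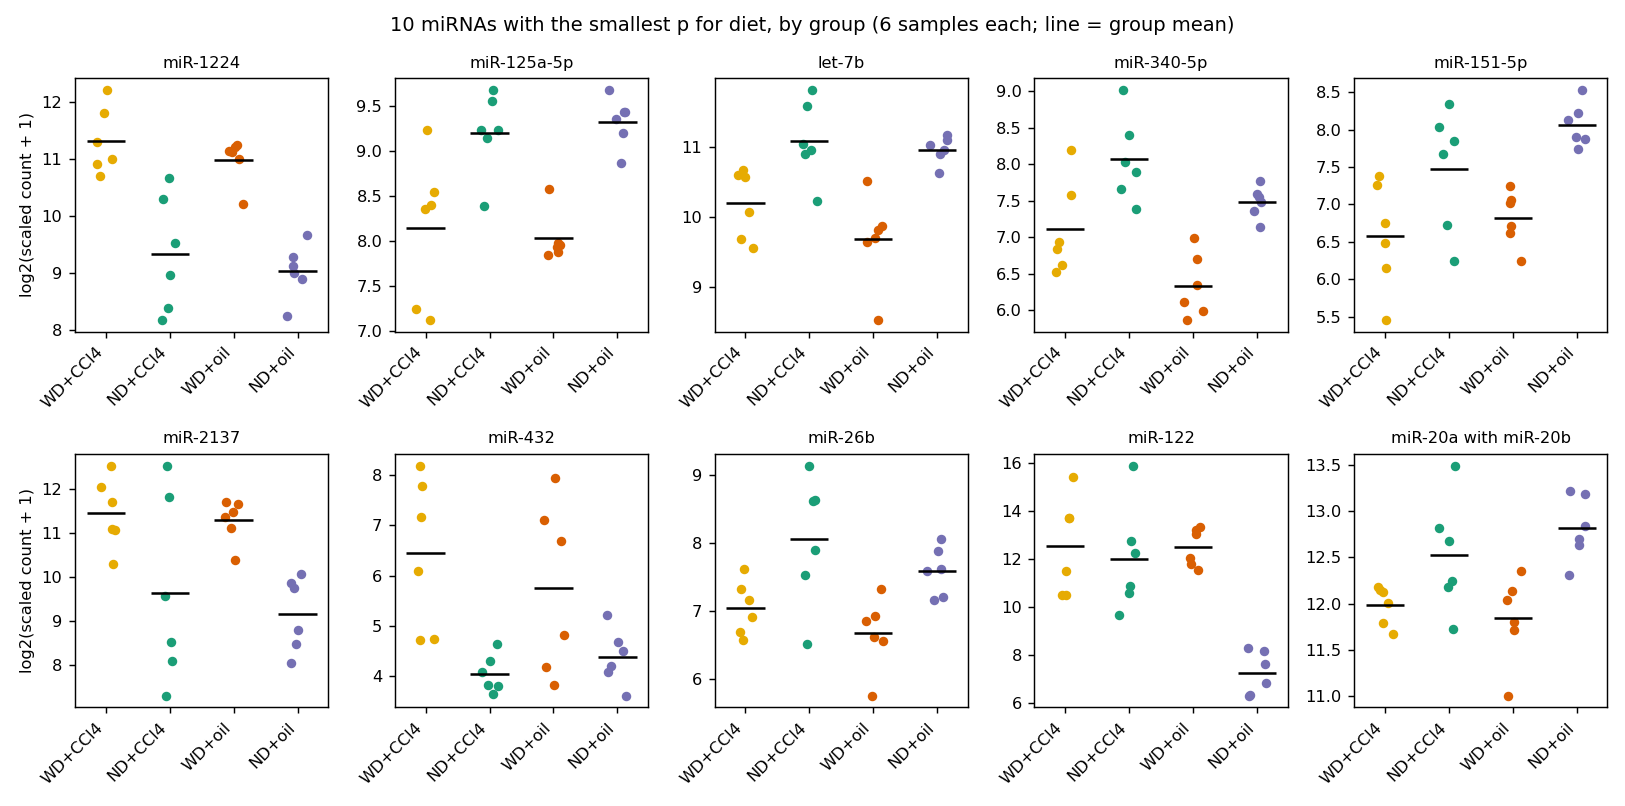
log2(scaled count + 1) of the 10 miRNAs with the smallest p for diet, with 6 samples per group as points and the group mean as a line. miR-1224 is higher in each western diet group without overlap, and miR-122 is far apart only between the oil groups.

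Among the falls, 4 of the 9 let-7 family members passed and all 9 differences were below 0, with a median of -0.83 beside -0.05 for all 158. let-7 takes its name from a worm gene of developmental timing, and its members repress growth genes such as Hmga2. With carbon tetrachloride let-7b lay at 754 to 1631 in WD+CCl4 (median 1300.4), against 1201 to 3622 in ND+CCl4 (median 2053). In the oil groups it was at 366 to 1466 in WD+oil (median 865), against 1582 to 2302 in ND+oil (median 2045), without overlap. Its mean log2 level was 9.94 ± 0.61 on the western diet and 11.03 ± 0.41 on chow (SD, n = 12 each), or 46.9% of the chow level (log2 difference -1.09, SE 0.22, adjusted p = 0.00183, limma), and 12 of 12 samples showed the fall. let-7i fell by 1.16 on the log2 scale (SE 0.38), let-7g by 0.77 (SE 0.21) and miR-98 by 0.94 (SE 0.27), with adjusted p from 0.0157 to 0.0349 (limma). miR-98 was above the limit in only 2 western diet and 5 chow libraries. The 5 members that did not pass were at -0.36 (let-7e) to -0.87 (let-7d), with let-7c at -0.79, SE 0.31 (adjusted p = 0.075). The summed level of the 9 was 3478 to 8998 scaled counts in WD+CCl4 and 5672 to 17637 in ND+CCl4, and 3053 to 6899 in WD+oil and 9126 to 14672 in ND+oil. The sums overlapped with carbon tetrachloride and did not overlap with oil. The median was -0.73 with spike-in scaling and -0.78 with centring. Both rescale whole libraries and so move all miRNAs nearly alike, which does not test the let-7 family apart. With spike-in scaling let-7b did not pass (adjusted p = 0.759, limma).

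miR-125a-5p, of the family of the worm timing miRNA lin-4, had the smallest p among the falls. With carbon tetrachloride it lay at 138 to 599 in WD+CCl4 (median 332), against 335 to 818 in ND+CCl4 (median 600.2). With oil it lay at 228 to 382 in WD+oil (median 245), against 465 to 815 in ND+oil (median 671), without overlap. It was at 44.2% of the chow level (log2 difference -1.18, SE 0.22, adjusted p = 0.00101, limma), in 11 of 12 samples. miR-99a, which is known to repress Mtor and lies beside let-7c in the genome, fell by 0.92 (SE 0.33), the weakest of the 31 calls, kept in 4 of 24 fits that left out 1 library. It was above the negative control limit in 7 western diet and 8 chow libraries. With background subtraction miR-99a did not pass (adjusted p = 0.0634, limma). The third measured member of this group, miR-125b-5p, was at -0.02.

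The miR-17 family is known to promote cell cycle entry. With carbon tetrachloride the probe for miR-20a with miR-20b lay at 3268 to 4622 in WD+CCl4 (median 4286), against 3389 to 11499.6 in ND+CCl4 (median 5708). Its oil values were 2056 to 5243 in WD+oil (median 3883), against 5079 to 9521 in ND+oil (median 6977). The groups overlapped with both injections, yet 12 of 12 western diet samples lay below the chow mean of their injection (log2 difference -0.75, SE 0.20, adjusted p = 0.0137, limma). The probe for miR-106a with miR-17 fell by 0.65 (SE 0.21, adjusted p = 0.0363). The other 6 measured members of the miR-17-92 clusters and their relatives did not pass, at -0.36 (miR-19a) to 0.28 (miR-92a), and the median of all 8 was -0.24.

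Other falls belonged to several families. With carbon tetrachloride miR-340-5p lay at 91.0 to 292 in WD+CCl4 (median 117), against 167 to 517 in ND+CCl4 (median 249). With oil it lay at 57.4 to 126 in WD+oil (median 74.2), against 139.9 to 217 in ND+oil (median 182), without overlap (log2 difference -1.05, SE 0.21, adjusted p = 0.00183, limma). It was above the negative control limit in 9 libraries of each diet, and the other 6 libraries were at or under it.
With carbon tetrachloride miR-151-5p lay at 42.9 to 165 in WD+CCl4 (median 97.8), against 74.7 to 322 in ND+CCl4 (median 217). Its oil values were 75.0 to 151 in WD+oil (median 117), against 214 to 369 in ND+oil (median 259), without overlap (log2 difference -1.07, SE 0.25, adjusted p = 0.00574, limma). miR-151-5p was above the negative control limit in 9 western diet and 12 chow libraries.
With carbon tetrachloride miR-26b, which lies inside Ctdsp1, was at 94.5 to 195 in WD+CCl4 (median 131), against 90.3 to 563 in ND+CCl4 (median 315). Its oil values were 52.9 to 159 in WD+oil (median 106), against 142 to 265 in ND+oil (median 194) (log2 difference -0.96, SE 0.25, adjusted p = 0.0126, limma). All 12 western diet samples lay below the chow mean of their injection. miR-26b was above the negative control limit in 9 libraries of each diet, and with background subtraction it did not pass (adjusted p = 0.209, limma).
miR-29b, a repressor of collagen genes, fell by 1.10 (SE 0.30, adjusted p = 0.0149), while miR-29a was at -0.36 and miR-29c at 0.82, SE 0.35 (adjusted p = 0.102), so the median of the miR-29 family was -0.36. miR-15a, which targets Bcl2, fell by 0.85 (SE 0.25). Its relatives miR-15b, at -0.91, SE 0.36, and miR-16, at -0.14, SE 0.20, did not pass, and the median of these 3 was -0.85. miR-181a, which tunes T-cell receptor signalling, had the largest fall, -1.25 (SE 0.41), and miR-142-3p, found throughout blood cells, fell by 1.02 (SE 0.35). miR-301a, inside Ska2, fell by 0.67, with the 4 measured members of the miR-130 and miR-301 families at a median of -0.38. miR-128, enriched in brain, fell by 0.79, miR-872 by 0.76 and miR-350 by 0.53. miR-872 was above the limit in only 4 western diet and 5 chow libraries, and miR-128 in 9 and 7. With background subtraction miR-872 did not pass (adjusted p = 0.583, limma). miR-669a, of the Sfmbt2 intron cluster, fell by 0.74 (SE 0.25) and was above the limit in 9 libraries of each diet. Adjusted p for these last 9 falls was 0.0149 to 0.0459 (limma). Of these, miR-142-3p and miR-128 passed in 8 of 24 fits that left out 1 library, and miR-301a and miR-669a in 10. None of those 4 passed with median centring (adjusted p = 0.052 to 0.0544) or background subtraction (0.0579 to 0.213, limma). Nor did they with the haemolysis covariate (adjusted p = 0.114 to 0.151, limma).

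**Figure D3:**
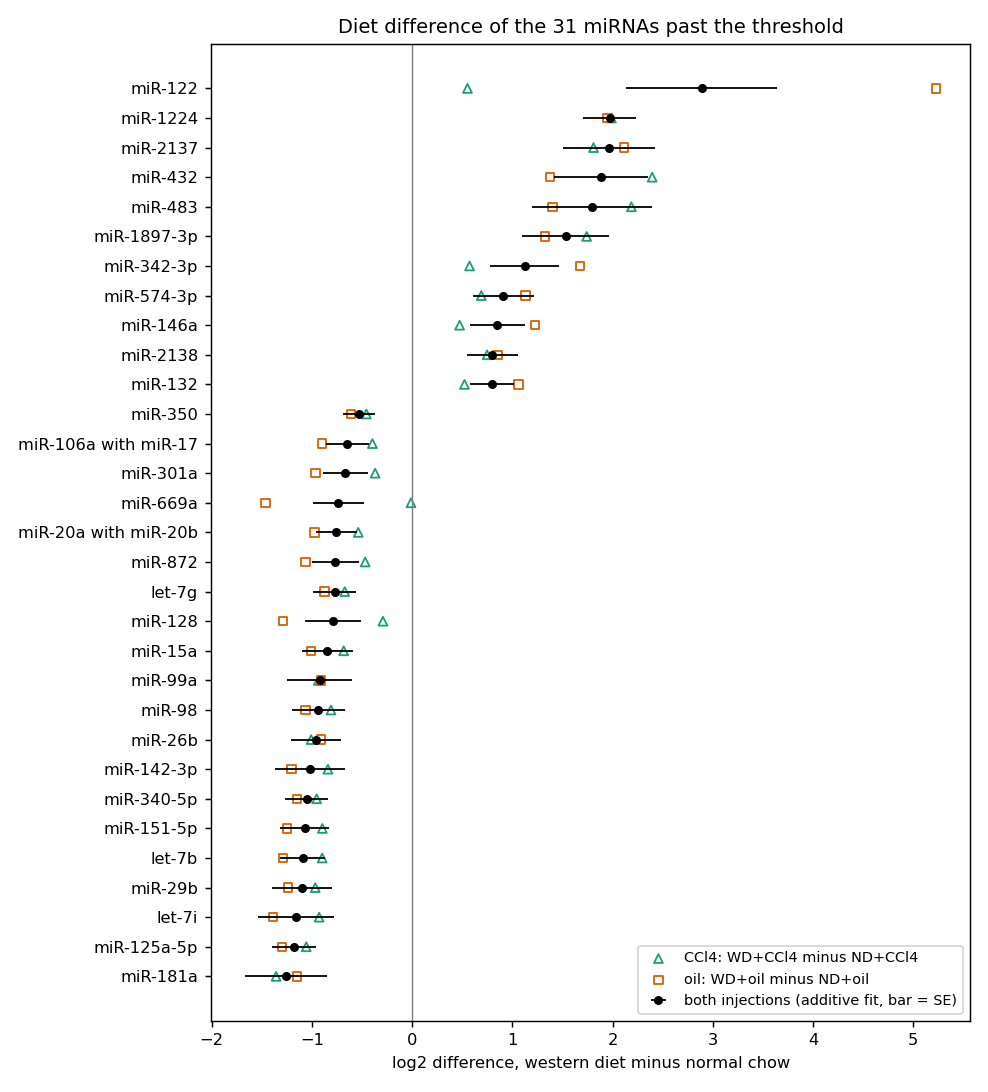
log2 difference of western diet minus chow for the 31 miRNAs past the threshold. Black points and bars give the additive fit and its SE, triangles the difference with carbon tetrachloride and squares that with oil, and both marks lie on the same side of 0 for all 31, with that of miR-669a at -0.01 with carbon tetrachloride.

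The calls rest on different numbers of libraries. Of the 31, 17 passed in each of the 24 fits that left out 1 library, and the other 14 passed in 4 (miR-99a) to 22 (miR-342-3p and miR-872). Without ND+CCl4 replicate 1 all 31 passed, and without any of the other 23 libraries 18 (WD+oil replicate 3) to 30 of them did. Signal above the limit in all 24 libraries was found for 12 of the 31, 5 rises (miR-1224, miR-2137, miR-132, miR-342-3p and miR-146a) and 7 falls.

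The diet difference was then set out by injection. With carbon tetrachloride 1 of 158 miRNAs passed (0.633%) and 19 had an unadjusted p under 0.05 (12%). With oil 17 passed (10.8%), 8 higher and 9 lower, and 46 had an unadjusted p under 0.05 (29.1%). WD+CCl4 and ND+CCl4 did not overlap in 2 miRNAs (1.27%), miR-1224 and miR-432, and WD+oil and ND+oil did not overlap in 25 (15.8%). For miR-432 the lowest WD+CCl4 value and the highest ND+CCl4 value both lay under the negative control limits of their libraries. That miRNA was above the limit in 4 WD+CCl4 libraries and 1 ND+CCl4 library, so its separation rests partly on background signal. Of the 17 oil calls, 15 also passed for diet over both injections. The other 2 were miR-192 and miR-540-3p, with diet differences of 1.64, SE 0.63 and 1.48, SE 0.54 (adjusted p = 0.0745 and 0.056, limma). miR-192 was at 0.12 with carbon tetrachloride and 3.16 with oil, and miR-540-3p at 0.13 with carbon tetrachloride and 2.82 with oil.
All 17 oil calls had the same sign with carbon tetrachloride, beside 114 of all 158 miRNAs (72.2%). The 2 injections share no sample, but their replicate numbers fall into the same sets. Their median absolute log2 difference was 0.54 with carbon tetrachloride and 1.29 with oil, and 16 of the 17 were smaller with carbon tetrachloride, though being selected on the oil samples favours that order. Over 158 miRNAs the 2 sets of differences had a Pearson r of 0.54 and a Spearman rho of 0.58, as a description across miRNAs measured in the same libraries. All 31 diet calls had the same sign with both injections, which their selection on the mean of both favours, and 24 were smaller with carbon tetrachloride. 16 of the 31 passed with neither injection alone.
The diet by injection term passed for 0 of 158 miRNAs (0%) by limma and for 0 by edgeR, with 6 (3.8%) and 10 at an unadjusted p under 0.05. The smallest p values were those of miR-122, miR-669a and miR-540-3p. miR-669a was at -0.01 with carbon tetrachloride and -1.46 with oil (term 1.45, SE 0.43, limma adjusted p = 0.193). Without the 2 libraries that stood apart 2 passed, miR-122 (-4.47, SE 0.89) and miR-192 (-3.09, SE 0.64), both with adjusted p = 0.00577. With same-numbered samples as a block within each injection 9 passed, and 18 passed with carbon tetrachloride and 61 with oil.

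**Figure D4:**
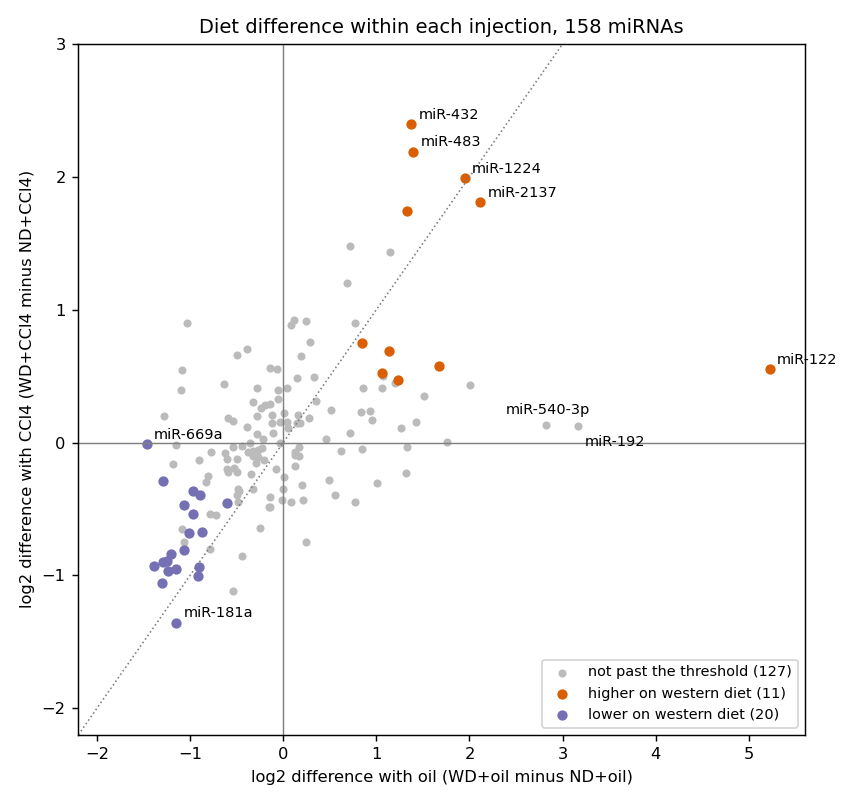
log2 diet difference with carbon tetrachloride (vertical) against that with oil (horizontal) for 158 miRNAs, with rises and falls of the additive model in colour and equal differences on the dotted line. miR-1224 and miR-2137 lie near the line, while miR-122, miR-192 and miR-540-3p lie far to the right at little height.

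Lists of miRNAs by source and family were described by their counts and medians, beside 31 of 158 called (19.6%) and a median of -0.05. Of 6 hepatocyte miRNAs 5 were measured and all 5 differences were above 0, with a median of 1.22. miR-122 passed, while miR-192, miR-148a (1.22, SE 0.49, adjusted p = 0.081), miR-802 (0.79) and miR-365 (0.69) did not. All 5 passed with the paired block, beside 35.4% of all 158, and without the 2 libraries that stood apart, beside 32.3%. The list's median was 0.15 with carbon tetrachloride and 2.0 with oil. Its summed level was 4969 to 109992 scaled counts in WD+CCl4 and 2932 to 132420.0 in ND+CCl4, and 7781 to 22548 in WD+oil and 1228 to 2230.4 in ND+oil, without overlap in the oil pair.
None of the 6 red cell miRNAs passed, and their median was -0.05. miR-451 was at -0.27, SE 0.33 and miR-144 at -0.59, SE 0.39. Their summed level was 44900.4 to 146834 in WD+CCl4 and 52692 to 464766 in ND+CCl4, and 58710.0 to 111453 in WD+oil and 74845 to 143109 in ND+oil. With the haemolysis index as a covariate 20 of the 31 calls passed, and all 31 kept their sign.
Of 6 myeloid miRNAs 4 were measured. miR-146a rose, miR-142-3p fell, and miR-223 (-0.52, SE 0.36) and miR-142-5p (0.06) did not pass (median -0.23). Of 4 lymphoid probes 3 were measured. miR-342-3p rose, miR-181a fell and miR-150 was at -0.66 without passing, which is the median of the list. miR-342-3p and miR-181a thus moved in opposite directions within the same list. Among the 4 measured of 9 neuron probes miR-132 rose and miR-128 fell (median -0.16). None of 4 platelet and endothelium miRNAs passed (median -0.16). Nor did the 5 measured of 7 muscle miRNAs (median -0.20) or the 2 measured of 5 epithelium miRNAs (median -0.44). No pancreas miRNA was measured above background in enough libraries.
Of 10 miRNAs on the panel reported higher in liver fibrosis 5 were measured and none passed (median 0.02), with miR-21 at 0.07, SE 0.37. Of 14 reported higher in liver cancer 8 were measured and 1 passed, the fall of miR-181a (median -0.09). Of 10 lipid and glucose miRNAs 5 were measured and none passed (median 0.65), the smallest p being that of miR-370 (0.78, SE 0.31). The miR-23/24/27 clusters had a median of 0.33 with miR-23a at 0.33, SE 0.16, and the miR-30 family one of 0.11 with miR-30a at 0.88, SE 0.51, and none of their members passed. In the Dlk1-Dio3 cluster 9 of 59 probes were measured and miR-432 passed (median 0.16), and in the Sfmbt2 cluster 4 of 24 were measured and miR-669a passed (median -0.41). With the paired block, under which 35.4% of all 158 passed, 3 of the 5 lipid and glucose miRNAs passed, miR-27b (adjusted p = 0.00424), miR-370 (0.0335) and miR-27a (0.0418, limma), all higher. So did miR-30a, higher, and miR-191 of the platelet and endothelium list, lower, while miR-27a and miR-27b were also the 2 members of the miR-23/24/27 clusters that passed. miR-150, miR-15b, let-7a, let-7c and let-7d passed as lower under the block, and miR-29c, miR-301b and miR-540-3p as higher. Without the 2 libraries that stood apart, 2 of the lipid and glucose miRNAs, 1 epithelium miRNA and 1 of the miR-23/24/27 clusters passed. So did 3 myeloid, 3 lymphoid, 5 let-7, 2 miR-15/16, 2 miR-29 and 3 Dlk1-Dio3 miRNAs, beside 32.3% of all 158. Among them were miR-223 (-0.56, adjusted p = 0.02) and miR-150 (-0.75, adjusted p = 0.0195, limma), both lower. The group of miR-99 and miR-125 had 2 of 3 members called and a median of -0.92.

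**Figure D5:**
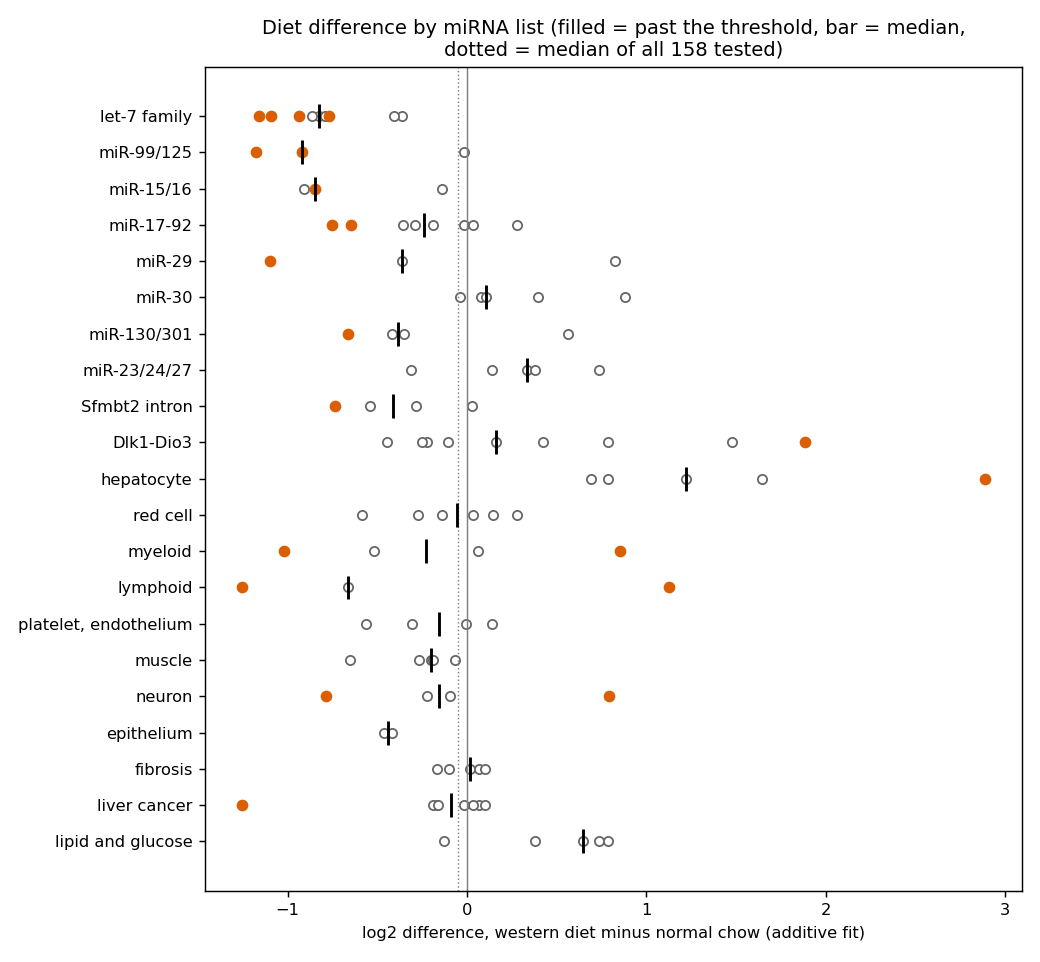
log2 difference of western diet minus chow for each measured member of 21 miRNA lists, filled where past the threshold, with the list median as a bar and the median of all 158 as a dotted line. The let-7 members all lie below 0 and the hepatocyte members all above 0, while the myeloid, lymphoid and neuron lists hold calls on both sides.

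Each set of replicates was also fitted alone. Replicates 4 to 6 gave 50 calls, 23 higher and 27 lower, of which 26 were among the 31. Replicates 1 to 3 gave 0 by limma, with 11 at an unadjusted p under 0.05, and after the 2 libraries that stood apart were left out they gave 1, miR-1224. All 31 differences had the same sign in both sets, which their selection on the samples of both favours. Of all 158 miRNAs, 116 had the same sign in both sets. Among the 31, 26 differences were larger in replicates 4 to 6. The median SE was 0.27 in the fit of replicates 4 to 6, against 0.48 in that of replicates 1 to 3. miR-1224 was higher by log2 2.43 in replicates 4 to 6 and 1.51 in replicates 1 to 3, and let-7b differed by -1.26 in replicates 4 to 6 and -0.92 in replicates 1 to 3. The number of miRNAs above the limit was higher on the western diet by 24.5 in replicates 4 to 6 (exact permutation p = 0.02) and by 2.83 in replicates 1 to 3 (exact permutation p = 0.935). These p-values, over 400 assignments each, were not adjusted, and the part of this number in these calls was not tested.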

How the data were processed

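The authors extracted RNA from serum exosomes with a miRNeasy micro kit and counted miRNAs with NanoString's Mouse v1 miRNA panel (nCounter), according to the protocols, per the labels. What the authors deposited is 1 table with 24 sample columns and 626 features, whose unit is a signal (digital counts after scaling). How exosomes were isolated, which software was used and which cartridge held a sample is not given in the sources used here. The values themselves show that each library was multiplied by 1 factor (0.397 to 5.72) and values under 1 were set to 1. After division by its factor, each of the 14571 values above 1 was whole within 0.05 (100%). Another 117 values, spread over 9 libraries, stood at 1, and 2 of these belong to tested miRNAs. Total counts of 42478 to 1496818 per library limit the counting precision.

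The test was limma 3.58.1 (R 4.3.3; lmFit, then eBayes with its trend option) on log2(value + 1), with diet and injection as terms over all 24 samples, two-sided, with adjustment over the 158 miRNAs. Fold changes are on that scale and understate low miRNAs. Differences within each injection and the diet by injection term came from 4 group means. Of the probes tested, 4 are shared by several miRNAs. Alternatives were edgeR 4.0.16 (34 calls) and DESeq2 1.42.0 on recovered counts, other scalings, filters, pseudocounts, covariates, blocks and left-out libraries. Same-numbered samples were taken as pairs because residuals of every WD and ND pair correlated above 0.1 (0.32 to 0.75 with oil, 0.28 to 0.84 with carbon tetrachloride). The scripts were tested on simulated data. Named miRNAs are the calls, up to 4 members of each list by smallest p, the 3 smallest p of the diet by injection term, and miR-122, miR-192, miR-1224, miR-451, miR-144, miR-16, miR-223, miR-21, miR-23a and let-7b. Other list members are given as ends of a range or to complete a short list, chosen after their values were seen. The lists were drawn up from general knowledge. The miRNAs, lists and comparisons were chosen with earlier results of these data known.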

Additional observations from a re-analysis of the deposited data

Results flagged for a closer look

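Within groups of 6, a single sample stood far from the other 5 in 28 of 212 tests (Dixon's test on log2(scaled count + 1), with 4 groups for each named miRNA), where chance marks about 1 in 20. WD+oil replicate 4 lay below the other 5 in miR-1224 at 10.21. WD+oil replicate 1 lay above the other 5 in miR-125a-5p at 8.58. WD+oil replicate 2 lay above the other 5 in miR-98 at 6.00 and miR-301a at 8.35. WD+CCl4 replicate 1 lay above the other 5 in miR-350 at 10.12, miR-192 at 14.60, miR-27b at 10.68, miR-802 at 8.80, miR-30a at 14.03 and miR-21 at 15.53. WD+CCl4 replicate 1 lay below the other 5 in miR-342-3p at 8.08, let-7i at 7.03, miR-191 at 8.78, miR-144 at 5.83, miR-223 at 11.01 and miR-451 at 14.22. WD+oil replicate 3 lay above the other 5 in miR-342-3p at 12.39. WD+oil replicate 3 lay below the other 5 in miR-451 at 14.73. ND+CCl4 replicate 2 lay below the other 5 in miR-872 at 4.77. ND+CCl4 replicate 1 lay above the other 5 in miR-148a at 15.66, miR-29c at 12.97, miR-27b at 10.69 and miR-365 at 8.65. ND+CCl4 replicate 1 lay below the other 5 in miR-181a at 4.83, miR-99a at 3.97 and miR-223 at 11.08. ND+oil replicate 2 lay below the other 5 in miR-206 at 5.07. WD+CCl4 replicate 2 lay below the other 5 in miR-206 at 3.44. WD+CCl4 replicate 1 and ND+CCl4 replicate 1, the libraries that stood apart on the first principal component, held 19 of the 28, and all 31 diet calls also passed without them.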

How the results depend on the processing

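All 31 calls kept their direction under every alternative that gave them a value. Their selection on these same libraries favours that. Counts are of all calls, then of rises and falls. They were 71, 33 and 38 with array weights, 0, 0 and 0 with spike-in scaling (limma, 12 at an unadjusted p under 0.05; median SE 0.58, beside 0.32), 13, 7 and 6 with no filter, 12, 5 and 7 with signal above the limit in all 24 libraries (fewer miRNAs tested), 50, 23 and 27 in replicates 4 to 6 alone, and 0, 0 and 0 in replicates 1 to 3 alone (limma, 11 at an unadjusted p under 0.05) or 1, 1 and 0 there without the libraries that stood apart. They were 51, 25 and 26 without those 2 libraries, 64, 29 and 35 with a term for the set as well, and 47, 22 and 25 without number 1 of all groups. With the paired replicate block within injection they were 56, 28 and 28, or 62, 27 and 35 without the libraries that stood apart. With the replicate number as a block they were 38, 16 and 22. Over all 24 libraries a block alters only the SE and not the difference, so it could reverse no call. DESeq2 gave 41, 18 and 23, median centring 24, 11 and 13, background subtraction 22, 10 and 12, and the haemolysis covariate 21, 10 and 11. Leaving out 1 library gave 18 to 54 calls, 7 to 23 rises and 11 to 31 falls; the count moved by over 1.5 times without WD+oil replicate 3 (18), ND+oil replicate 6 (19), ND+oil replicate 1 (20), ND+CCl4 replicate 4 (20) or ND+CCl4 replicate 1 (54). Within injections, 8 passed with carbon tetrachloride and 52 with oil without the libraries that stood apart, and 18 and 61 with the block. The diet by injection term passed for 2 without those libraries, 1 with the replicate number as a block and 9 with the paired block. The log2 total count differed by -0.11 in replicates 4 to 6, against 0.09 over all, and the number of miRNAs above the limit by 24.5 there. Among miRNAs that were not called, miR-451 turned to 0.24 with the haemolysis covariate, which is built from it, miR-16 to 0.078 with that covariate, 0.037 in replicates 1 to 3 without the libraries that stood apart and 0.0024 without ND+CCl4 replicate 5 (-0.24 to 0.0024 with 1 library left out), and miR-21 to -0.19 in replicates 4 to 6, -0.20 with the covariate, -0.060 without ND+CCl4 replicate 3 and -0.18 without WD+CCl4 replicate 1 (-0.18 to 0.31 with 1 library left out). Except where stated, the cause was not tested. miR-432, miR-98, miR-872 and miR-2138 lay above the negative control limit in at most 2 of the 12 libraries of replicates 1 to 3, and the part of depth in this was not tested.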

Other observations

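None of the 33 viral miRNA probes exceeded the negative control limit in at least 6 of 24 libraries, and 30 never did. Of the 4 messenger RNA probes, Actb was above the limit in 12 western diet and 12 chow libraries (log2 difference -0.42) and B2m in 11 and 12 (-0.83).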
